A study of Mus musculus with 3 samples.

Results

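The genes for splicing factors described here are protein-coding mouse genes whose symbols begin with Hnrnp, Srsf, Sf3, Prpf, Luc7l, Ptbp or Srrm, with Ddx5, Ddx17, Son and Sf1 added. They number 68 of the 21900 protein-coding genes in the annotation. Symbols alone decide which genes belong, but the set itself was proposed with results of these data known. Of the 68, 21 are hnRNP genes, 11 SR genes, 9 SF3 genes, 13 PRPF genes, 3 LUC7-like genes, 3 PTBP genes and 4 SRRM genes. The assay was CLIP, in which ultraviolet light fixes a protein to the RNA it touches, the RNA is cut with RNase I, and the protein, here the methylcytosine oxidase Tet2, is pulled down with an antibody. The cells were mast cells grown from the bone marrow of C57BL/6 mice with 10 ng/ml interleukin-3 and 5 ng/ml stem cell factor, stained for FcεRI and Kit and used above 97.5% purity. Cross-linking was done at 400 and then 200 mJ per square centimetre. All 3 libraries form 1 group with the same strain, cytokines and Tet2 antibody. The labels give no genotype, age or number of animals. The design text calls the triplicate biological, and no label ties a library to its own culture. No input, control-antibody or RNA-level data were analysed here, so a high level of an RNA and frequent binding of it cannot be told apart.

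Splicing removes introns from nuclear pre-mRNA. The U1 snRNP first pairs with the 5′ splice site, SF1 and then the SF3 complexes of the U2 snRNP settle on the branch point, and the PRPF proteins serve in later assembly and catalysis. SR proteins bind exonic enhancers and mostly favour nearby splice sites, while hnRNP proteins coat the nascent transcript and often oppose them. Many genes of both families regulate their own output through alternative splicing of their own transcripts.

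The deposited list of replicate 1 held 3019 peaks, that of replicate 2 held 2800 and that of replicate 3 held 2377. Heights in a list added up to 1, and each was a whole number of equal steps, here called height units. Replicates 1, 2 and 3 comprised 19213, 18270 and 15431 units, and sequencing depth is unknown. The median peak stood at 4 units in each library and the lowest at 2, 2 and 3 units. For the labelled cell type, 8 of 12 mast cell markers (66.7%) had a peak in any library, beside 14.1% of all protein-coding genes. They included Kit, Gata2, Cpa3 and Hdc, while Fcer1a, Ms4a2, Cma1 and Mcpt4 held no peak in any library. Of the 8, 6 had a peak in every library, beside 3.16% of all protein-coding genes. Mitf and Srgn had a peak of 3 units in 1 library only. Of the Gata2 peaks 8, and of the Cpa3 peaks 3, lay in more than 1 annotated span and cannot be credited to these genes alone. Neutrophil (0 of 6), basophil (0 of 2) and lymphocyte markers (0 of 4) had no peak, against 1 of 6 macrophage markers (Adgre1) and 1 of 4 erythroid and megakaryocytic markers (Itga2b). These lists are short beside a share of 14.1% over all protein-coding genes, so an absence of peaks there says little. A gene counted as bound in a library when the midpoint of at least 1 peak lay inside its annotated span.

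Of the 68 splicing factor genes, 34 (50.0%) held a Tet2 peak in at least 1 library, where 14.1% of all protein-coding genes did. A peak in every library was found for 11 of them (16.2%), where the share over all protein-coding genes was 3.16%. Replicate 1 had 26 bound genes, replicate 2 had 19 and replicate 3 had 19, and the shares of all protein-coding genes were 8.55%, 8.04% and 7.02%. On average 31.4% ± 5.94 of splicing factor genes were bound per library, against 7.80% ± 0.768 of the other protein-coding genes (SD, n = 3). No test of this difference was made, because the set was proposed with results of these data known. Among the 34 bound genes, 8 were bound in 2 libraries and 15 in 1, of which 8 were bound in replicate 1 alone, 4 in replicate 2 alone and 3 in replicate 3 alone. Bound splicing factor genes had a median span of 16153 nt and unbound ones 22066 nt, so the bound genes were the shorter ones by this measure. The other protein-coding genes with a peak had a median span of 29485 nt and those without a peak 15679 nt.

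The peaks were low. They numbered 41, 25 and 22 in replicates 1, 2 and 3, or 1.06% ± 0.260 of a library's peaks and 0.738% ± 0.197 of its summed height (SD, n = 3). Median height was 4, 5 and 4 units in splicing factor genes, against 4 units in other protein-coding genes in each library. The tallest peak stood at 10 units in replicate 1, 8 in replicate 2 and 8 in replicate 3. Peaks of 4 units or less made up 59.1% ± 16.8 of those in splicing factor genes and 65.3% ± 2.17 of those in other protein-coding genes (SD, n = 3). Peaks that overlapped by at least 1 nt were joined into loci. Of 62 loci in splicing factor genes, 8 (12.9%) were common to all 3 libraries, 10 (16.1%) were seen in 2 and 44 (71.0%) in 1. The 5187 loci of other protein-coding genes were divided much the same way, at 10.6%, 14.9% and 74.5%. The 8 loci lay in 7 genes (10.3%), where 2.11% of all protein-coding genes had such a locus. Counting only peaks of at least 5 units, 22 of the 68 genes (32.4%) were bound in at least 1 library, where 5.65% of all protein-coding genes were. By that rule 1 gene, Ddx17 (1.47%), was bound in every library, where the share over all protein-coding genes was 1.26%, so the higher share in every library was not seen without the lowest peaks. Its locus was the only one of the set common to all libraries at that height, and 0.954% of all protein-coding genes had one. With at least 2 peaks required in a library, 16 genes (23.5%) were bound in at least 1 library, where 3.9% of all protein-coding genes were, and 1 gene, Sf3a2, in every library, where 0.694% were.

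**Figure D1:**
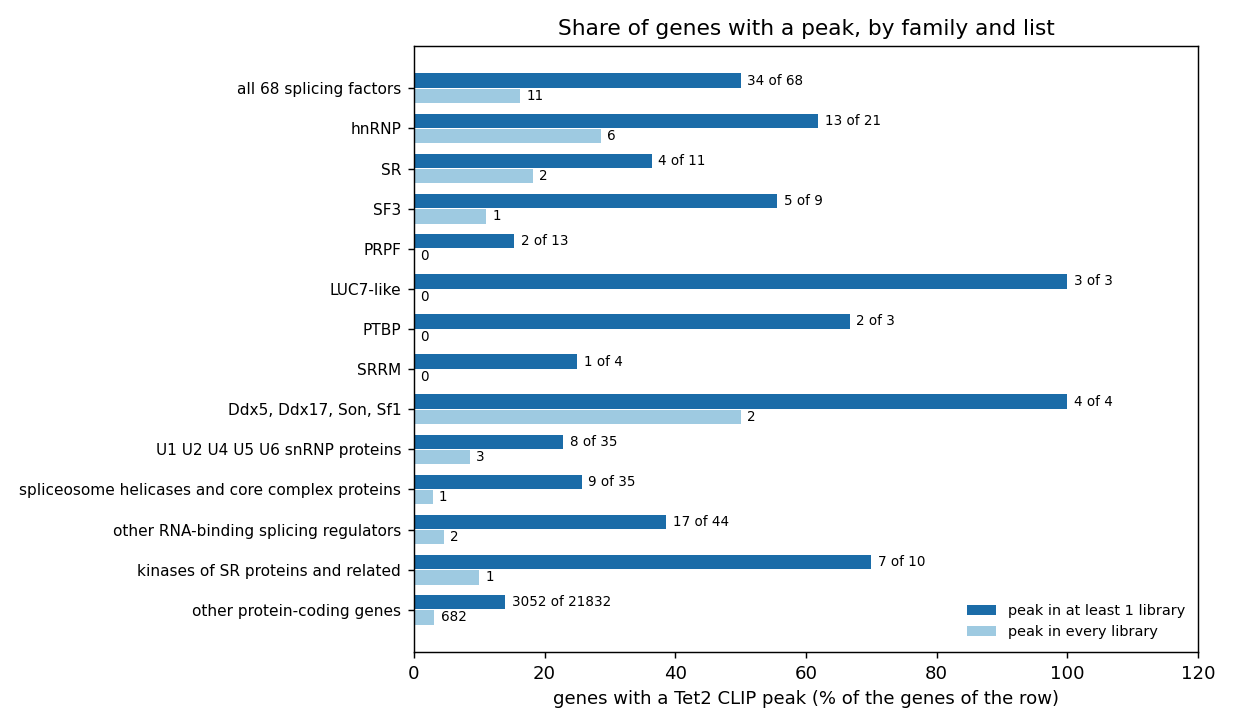
Share of genes with a Tet2 CLIP peak (horizontal axis, percent of the genes in each row) for the 68 splicing factor genes, their families, 4 other lists of splicing genes and all other protein-coding genes. Dark bars give a peak in at least 1 library and light bars a peak in every library, with counts beside them: 34 of 68 splicing factor genes and 3052 of 21832 other genes were bound.

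The hnRNP family, the largest of the set, held the most peaks, 34 in all. Of its 21 genes, 13 (61.9%) were bound, beside 14.1% of all protein-coding genes, and 6 were bound in every library, beside 3.16%. Hnrnpd, or AUF1, which binds AU-rich elements and controls mRNA decay, carried tallest peaks of 7, 8 and 4 units in replicates 1, 2 and 3. Expressed per 10000 of a library's summed height, this came to 3.54 ± 0.898 (SD, n = 3). The peaks met at chromosome 5, 99978471 to 99978518, 423 to 446 nt downstream of the listed start, and replicate 1 had another peak of 3 units at 115 nt. In replicate 1 the taller peak was 4 nt wide, against 44 and 48 nt in replicates 2 and 3. It met the replicate 2 peak only at base 99978514, and the replicate 3 peak covered both.

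Hnrnpu, also called SAF-A, a nuclear scaffold protein that binds RNA and DNA, carried 4, 5 and 4 units at chromosome 1, 178337371 to 178337440, with the same lower edge in all 3 libraries. The midpoints lay 412, 410 and 412 nt from the start. Its relative Hnrnpul1 carried 5, 6 and 3 units on chromosome 7 (25754344 to 25754458), 352 to 359 nt from the start, with widths of 2, 16 and 115 nt. Hnrnpul2, the other relative, carried 0, 3 and 5 units on chromosome 19 (8820599 to 8820661). The tallest peak came to 2.47 ± 0.344 per 10000 for Hnrnpu, 2.61 ± 0.670 for Hnrnpul1 and 1.63 ± 1.62 for Hnrnpul2 (SD, n = 3). For Hnrnpul2 the library without a peak entered as 0.

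In 3 further hnRNP genes each library had a peak, but no locus was common to all. Hnrnpk, which binds C-rich RNA, carried 5, 3 and 4 units at 3 separate places, 1446, 710 and 69 nt from the start. Hnrnpl, which binds CA repeats, carried 3, 4 and 6 units. Its replicate 3 peak overlapped one of 3 units in replicate 2 at chromosome 7, 28809576 to 28809636, upstream of the listed start but inside the span, while the 4-unit peak of replicate 2 lay 209 nt and the replicate 1 peak 7627 nt downstream. Hnrnpf, which binds G tracts, carried 5, 3 and 3 units, with 1, 3 and 1 peaks. Every Hnrnpf peak also lay in the span of 4933440N22Rik, and without strand the peaks cannot be credited to either gene.

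The rest of the bound hnRNP genes had peaks in 1 or 2 libraries. Hnrnpab carried 7, 6 and 0 units in a peak of 11 nt with identical edges in both libraries (chromosome 11, 51606667 to 51606677), 209 nt from the start. Hnrnpdl, a relative of Hnrnpd, carried 5, 7 and 0 units, 2327 nt from the start in both libraries. Hnrnpm carried 7 units in replicate 2 alone, 35357 nt from the start, the most distal peak among splicing factor genes with a listed start. Single peaks of 5, 4 and 3 units lay in Hnrnpa3 (replicate 2), Hnrnpa0 (replicate 1) and Hnrnph1 (replicate 3). No peak was found in 8 hnRNP genes, among them Hnrnpa1, Hnrnpa2b1 and Hnrnpc, which encode the core proteins of hnRNP particles. The others were Hnrnph2, Hnrnph3, Hnrnpll, Hnrnpr and Hnrnpa1l2-ps2, whose symbol is that of a pseudogene although the annotation types it as protein-coding.

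**Figure D2:**
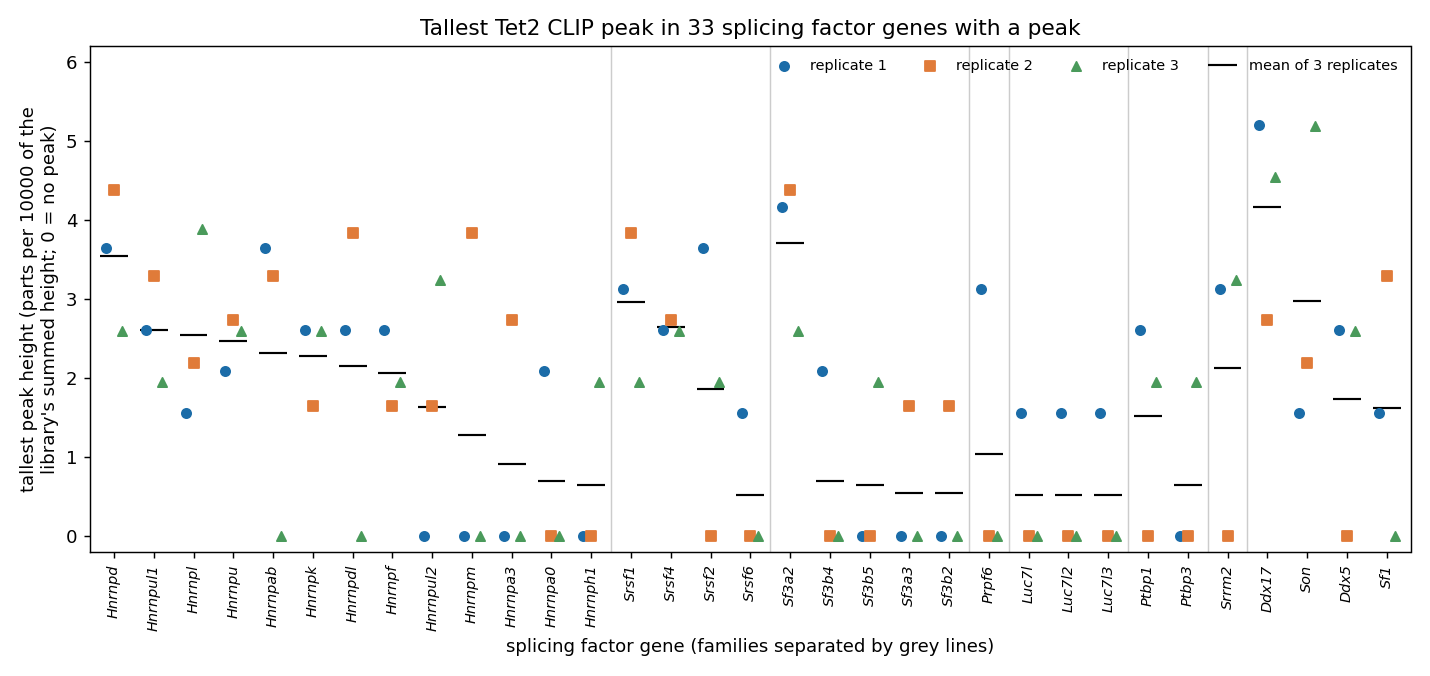
Height of the tallest Tet2 CLIP peak in 33 of the 34 bound splicing factor genes (vertical axis, parts per 10000 of the library's summed height, 0 where a library had no peak). Points are the 3 replicates, black lines their means and grey lines part the families. Srsf4 has the tightest replicates (2.64 ± 0.0807, SD, n = 3), while 14 genes have points above 0 in a single replicate.

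Among SR genes, 4 of 11 were bound (36.4%), beside 14.1% of all protein-coding genes, and 2 were bound in every library, beside 3.16%. Srsf4, or SRp75, carried 5, 5 and 4 units at chromosome 4, 131873712 to 131873817, 112, 133 and 95 nt downstream of the nearest start. Srsf1, the founding SR protein also known as SF2 or ASF, carried 6, 7 and 3 units. Its peaks in replicates 1 and 2 shared the upper edge 88047877 on chromosome 11, 470 and 464 nt from the start, and the replicate 3 peak was a separate one of 3 nt at 1010 nt. Srsf2, or SC35, carried 7, 0 and 3 units at 415 to 780 nt, all inside the overlapping span of Mfsd11. Srsf6 had 3 peaks of 3 units in replicate 1 and none in the other libraries. Srsf3, Srsf5, Srsf7, Srsf9, Srsf10, Srsf11 and Srsf12 held no peak in any library.

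The SF3 genes of the U2 snRNP had 5 of 9 bound (55.6%), beside 14.1% of all protein-coding genes. Of these, 1 was bound in every library, beside 3.16% of all protein-coding genes. Sf3a2, a subunit of the SF3a complex, held 2 loci in all 3 libraries, the only splicing factor gene of the 68 with more than 1 such locus. The first, at chromosome 10, 80798712 to 80798805, carried 8, 8 and 4 units, with the same upper edge in all libraries. Only its 4-unit peak of replicate 3 spanned the listed start, and those of replicates 1 and 2 lay downstream of that start. The second, at 80801196 to 80801232, carried 8, 8 and 4 units as well, with the same lower edge, 2479, 2473 and 2473 nt from the start. The tallest peak came to 3.71 ± 0.975 per 10000 (SD, n = 3). No other SF3 gene was bound in more than 1 library. Sf3b4 had 4 peaks of 3 or 4 units in replicate 1, Sf3b5 had 2 of 3 units in replicate 3, and Sf3a3 and Sf3b2 had 1 of 3 units each in replicate 2. Sf3b1, the large SF3b subunit that contacts the branch site, held none, nor did Sf3a1, Sf3b3 and Sf3b6. Sf1, the protein that first binds the branch point, carried 3, 6 and 0 units, 414 and 412 nt from the start.

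Start windows of 300 bases, from 250 before to 50 after a listed start, were read from RefSeq (GRCm38.p6) to show the letters under the peaks. They are printed for the 3 genes where peaks covered at least 10 bases of a window, with the covered bases in capitals. The Sf3a2 window lies on the plus strand at chr10:80798485-80798784 and is covered over its last 73 bases by the peak of replicate 3, with the peaks of replicates 1 and 2 reaching only its end. The Hnrnpf window on the plus strand at chr6:117907554-117907853 is covered by replicates 1 and 2 over 25 bases together, and the Ddx5 window on the minus strand at chr11:106788445-106788744 is covered by replicate 1 over 10 bases.
Sf3a2: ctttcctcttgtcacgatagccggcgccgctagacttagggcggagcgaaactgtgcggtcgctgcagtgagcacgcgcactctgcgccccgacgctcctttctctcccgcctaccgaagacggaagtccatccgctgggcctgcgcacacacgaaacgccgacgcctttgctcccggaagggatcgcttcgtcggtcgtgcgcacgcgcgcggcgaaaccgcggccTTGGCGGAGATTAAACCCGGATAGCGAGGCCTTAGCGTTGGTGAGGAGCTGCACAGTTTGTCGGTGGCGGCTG
Hnrnpf: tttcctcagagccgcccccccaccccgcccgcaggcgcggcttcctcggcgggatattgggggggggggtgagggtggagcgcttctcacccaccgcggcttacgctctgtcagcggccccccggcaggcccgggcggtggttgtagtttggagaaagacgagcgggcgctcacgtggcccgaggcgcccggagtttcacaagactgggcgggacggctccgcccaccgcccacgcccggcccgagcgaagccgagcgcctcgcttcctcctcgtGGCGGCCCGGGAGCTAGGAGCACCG
Ddx5: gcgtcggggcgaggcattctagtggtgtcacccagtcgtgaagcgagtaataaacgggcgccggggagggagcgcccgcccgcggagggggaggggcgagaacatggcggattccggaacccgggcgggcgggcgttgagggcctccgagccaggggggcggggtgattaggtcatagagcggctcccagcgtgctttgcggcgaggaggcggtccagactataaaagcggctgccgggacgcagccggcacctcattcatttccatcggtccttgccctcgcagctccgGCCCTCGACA
The Sf3a2 window holds 41 CpG dinucleotides. Letters were counted in 1 window per gene, at the outermost listed start. For Ddx5 and Hnrnpf the counted window is not the printed one, so the TATAAA in the printed Ddx5 window was not counted. The 28 bound splicing factor genes with a window had a median of 28.5 CpG and the 32 unbound ones 25. The medians were 23 in other bound protein-coding genes and 11 in other unbound ones. The letters CCGGAAG on either strand, a core recognised by ETS transcription factors, were in 8 of 28 bound splicing factor genes (28.6%), against 16.7% of 2478 other bound genes, and in 8 of 32 unbound ones (25.0%), against 11.1% of 14954 other unbound genes. TATAAA was in 3 of 28 bound splicing factor genes (10.7%), against 7.38% of other bound genes, and in 3 of 32 unbound ones (9.38%), against 14.3% of other unbound genes. These counts describe letters in a window and say nothing of factor binding.

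The PRPF family had 2 of 13 genes bound (15.4%), both in replicate 1 alone, close to the 14.1% of all protein-coding genes. Prpf6, which bridges the U4/U6 and U5 snRNPs, had peaks of 6 units at 191 nt and 3 units at 6812 nt from the start. Prpf8, the U5 protein at the catalytic centre, held none, and neither did Prpf3, Prpf4, Prpf19 and Prpf31, among 11 PRPF genes without a peak. All 3 genes related to the yeast U1 protein Luc7 (Luc7l, Luc7l2 and Luc7l3) had 1 peak of 3 units each in replicate 1, and none elsewhere. Of all protein-coding genes 8.55% had a peak in replicate 1, the library with the most peaks, and 14.1% in at least 1 library. Without replicate 1, neither family had a bound gene.

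Ptbp1, the polypyrimidine tract-binding protein, carried 5, 0 and 3 units. Its 3-unit peaks of replicates 1 and 3 overlapped at chromosome 10, 79855191 to 79855238, 771 and 782 nt from the start, while the 5-unit peak lay where the span of Plppr3 overlaps. Ptbp3 carried 3 units in replicate 3 and Ptbp2, the neuronal paralogue, held no peak. Srrm2, a large scaffold of nuclear speckles, carried 6, 0 and 5 units. Its 5-unit peaks of replicates 1 and 3 met only at base 23806993 of chromosome 17, in a locus from 23806988 to 23807105. Replicate 1 had 2 more peaks, of 5 units at 641 nt and of 6 units at 18877 nt. Srrm1 held none, nor did the neural Srrm3 and Srrm4.

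Son, the other speckle scaffold, carried 3, 4 and 8 units at a single locus common to all libraries (chromosome 16, 91660333 to 91660408). This locus lay 12531 to 12551 nt from the start, the farthest of the 8 common loci, and its height was 2.98 ± 1.94 per 10000 (SD, n = 3), highest in replicate 3. Ddx17 and Ddx5 are paralogous DEAD-box RNA helicases. Ddx17 had the highest mean of all 68 genes, at 10, 5 and 7 units or 4.16 ± 1.28 per 10000 (SD, n = 3), in a locus at chromosome 15, 79546392 to 79546448, 311 to 321 nt from the start. It had 2 more peaks of 4 and 3 units in replicate 1, downstream of another listed start. Ddx5 carried 5, 0 and 4 units at 3 separate places, 109, 252 and 461 nt from the nearest start, and so held no locus found in more than 1 library.

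The peaks of splicing factor genes lay close to gene starts. Starts and strand were listed for 60 of the 68 genes, and not for 8, among them Hnrnpul2, Luc7l, Ptbp3, Sf3b4 and Sf3b5. Of 77 peaks in genes with a listed start, 56 lay within 2000 nt downstream of the nearest one, 24 of 35 in replicate 1, 18 of 24 in replicate 2 and 14 of 18 in replicate 3. This was 73.8% ± 4.72 per library, against 41.7% ± 0.758 for peaks in other protein-coding genes (SD, n = 3). Over peaks downstream of a listed start the median distance was 434 nt, against 4190 nt, and 23 of the 28 bound genes with a listed start had a peak in this range. The 5 without one were Hnrnpdl, Hnrnpm, Luc7l2, Sf3a3 and Son.

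Span length differed between the sets, and the first 2000 nt made up 10.1% of the spans of bound splicing factor genes and 2.79% of those of other bound genes. In spans of 10000 to 40000 nt, 73.7% ± 4.81 of the splicing factor peaks lay within 2000 nt, against 40.9% ± 1.21 in other genes (SD, n = 3). Measured from the outer edge of the span in place of the nearest listed start, the shares were 63.5% ± 7.58 and 37.7% ± 0.956. In each library and by each of these measures the share was higher in splicing factor genes than in other genes, and no test was made. The 2000 nt window was chosen after the positions were seen. Among splicing factor peaks of at least 5 units the share within it was 58.6% ± 29.3 (SD, n = 3). That share varied widely between libraries and was not computed for other genes. At the other end, none of 52 peaks in spans of at least 10000 nt lay in the last 5% of the span, where other protein-coding genes had 7.86% ± 0.520 (SD, n = 3), and 31.6% ± 5.88 lay in the first 5%, against 30.2% ± 1.15. Taken without strand, the outer 5% at both ends held 32.6% ± 4.54 of the splicing factor peaks and 38.4% ± 1.26 of the others (SD, n = 3), so by this measure splicing factor genes were not higher. Exons were not analysed here, so peaks in exons, introns and UTRs are not told apart.

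**Figure D3:**
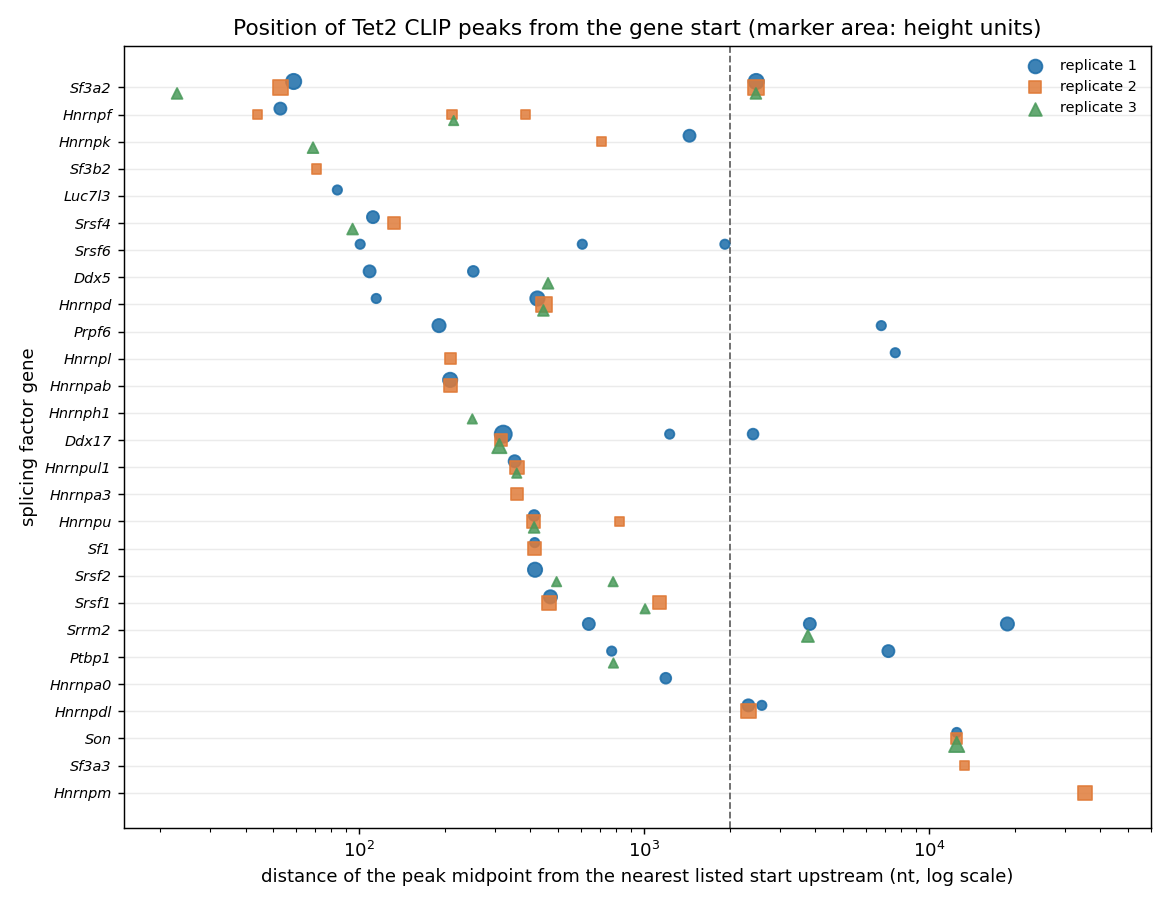
Peaks of the 27 splicing factor genes with a peak downstream of a listed start, 1 gene per line, by distance of the midpoint from the nearest start upstream (horizontal axis, nt, log scale). Colour and shape give the replicate, marker area the height in units, and the dashed line stands at 2000 nt. Markers of all 3 replicates coincide for Ddx17, Hnrnpu and Hnrnpul1 between 311 and 412 nt, and for Son near 12531 nt.

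**Figure D4:**
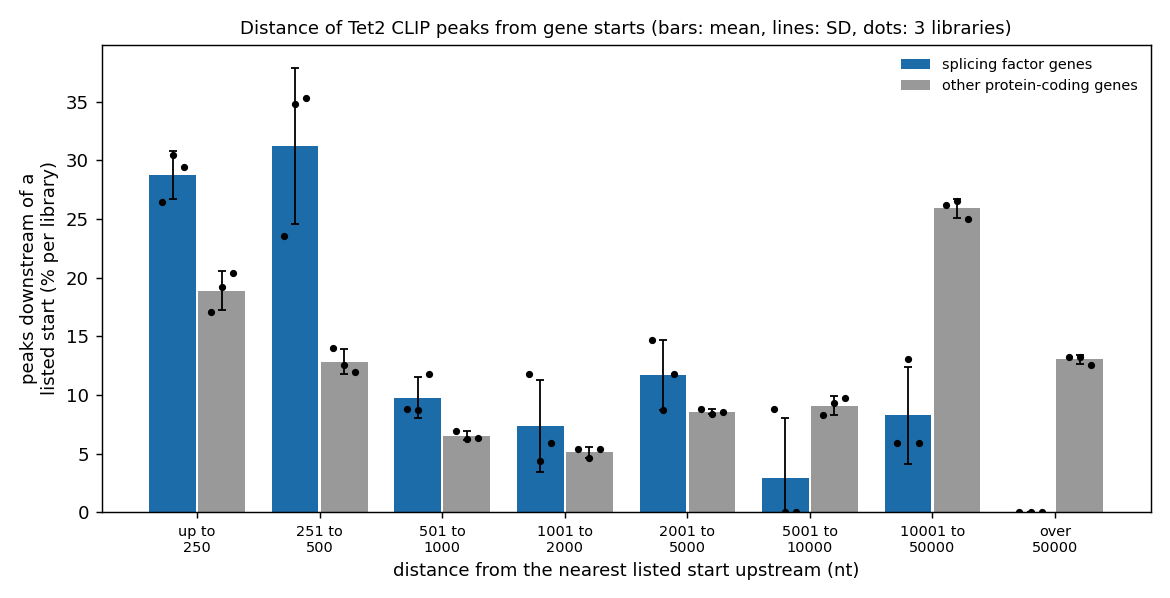
Percent of peaks downstream of a listed start that fall in each distance class (horizontal axis, nt), for splicing factor genes and other protein-coding genes. Bars are means of 3 libraries, lines SD and dots the libraries. Classes up to 500 nt hold 28.8% ± 2.06 and 31.2% ± 6.65 of the splicing factor peaks, against 18.9% ± 1.66 and 12.8% ± 1.05 of the others, while the class from 10001 to 50000 nt holds 8.27% ± 4.13 against 25.9% ± 0.807.

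Other splicing genes, taken from 4 lists by function, had 41 of 124 bound (33.1%), again beside 14.1% of all protein-coding genes. In every library 7 of the 124 were bound, where the share over all protein-coding genes was 3.16%. Per library 18.8% ± 0.931 of the 124 were bound, beside 31.4% ± 5.94 of the 68 genes (SD, n = 3), with no test made. Proteins of the snRNPs had 8 of 35 bound (22.9%). One of them, Snrnp70, the U1 protein that binds the first stem-loop of U1 RNA, carried 87, 88 and 84 units, taller in each library than any peak of the 68 genes. The U5 protein Txnl4a followed with 4, 6 and 5 units and 6 peaks in overlapping spans, then the U5 GTPase Eftud2 with 3, 0 and 7 and U2af2, which binds the polypyrimidine tract, with 3, 4 and 3. Helicases and core complex proteins had 9 of 35 bound (25.7%), led by Dhx15 (0, 8 and 4 units), Dhx16 (3, 5 and 4), Acin1 (5, 0 and 5) and Ddx41 (4, 0 and 3).

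RNA-binding splicing regulators outside the hnRNP and SR families had 17 of 44 bound (38.6%), beside 14.1% of all protein-coding genes. Among them were Ewsr1 at 4, 6 and 6 units, Ncl at 0, 13 and 3, Rbm39 at 6, 3 and 4 and Matr3 at 0, 5 and 5. Kinases of SR proteins and related kinases had 7 of 10 bound (70%), beside 14.1% of all protein-coding genes, but 1 in every library, beside 3.16%. That gene was Clk2, which phosphorylates SR proteins, with 10, 11 and 12 units, and 7 of its peaks lay where spans overlap. Clk3 carried 6, 3 and 0 units, Srpk2 carried 3, 0 and 4 and Cdk13 carried 3, 4 and 0.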

How the data were processed

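Per the labels' protocols, peaks were called separately in each library with a valley-seeking algorithm, and cutadapt 1.9, STAR 2.4.0i and build mm10 are listed per the submitters' processing notes. For the caller, version and thresholds were not stated in the sources. The authors deposited a signal, the normalized height of each peak, with chromosome, start and end. Heights were multiplied to whole units (within 0.05 for 100% of peaks). Starts were read as 0-based and coordinates are printed 1-based. Depth is unknown, and heights at 3 or 4 units lie near the lowest the lists hold.

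Spans of 49997 genes, 21900 of them protein-coding, were read from RefSeq (GRCm38.p6, the assembly of mm10), and listed starts and strand from RefSeq start windows. Midpoints assigned peaks to spans, and 3 peaks of splicing factor genes per library lay in over 1 span. Peaks carry no strand. Column headings bear the replicate number. With 1 group there was no test between groups, and the SD measures the spread between these libraries, which may be technical. The genes and lists were chosen with earlier results of these data known. Every bound gene of the set was named except 1, which is not reported here, with up to 4 of each other list by mean height. Assignment, locus joining and unit finding were tested on simulated data. Work was done in Python 3.11.15 with pandas 2.3.3. Alternatives are given in the closing section.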

Additional observations from a re-analysis of the deposited data

How the results depend on the processing

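Counts depended on the lowest peaks. With only peaks of at least 5 units, 22 splicing factor genes were bound in at least 1 library (beside 5.65% of all protein-coding genes), 1 in every library (beside 1.26%), and 1 locus was shared by all 3. When a library needed at least 2 peaks in a gene, 16 genes were bound in at least 1 library (beside 3.9%) and 1 in every library (beside 0.694%). Any overlap with the span gave 34 and 11 genes, and leaving out peaks in overlapping spans gave 32 and 10. Leaving out each replicate gave 26 to 31 genes in at least 1 library, lowest without replicate 1, and 12 to 15 in every remaining library. Shared loci numbered 8 with 50% overlap and 9 with a gap of up to 100 nt. The height share ran from 0.628% to 0.818% without single replicates, and was 0.672% without overlapping spans and 0.625% at 5 units or more. Near the gene ends, the outer 10% held 58.8% ± 5.12 of peaks, and the outer 5% held 39.6% ± 21.4 of peaks of at least 5 units (SD, n = 3). Neither share was computed for other genes, so neither tells whether splicing factor genes had more peaks near the ends. Within 1000 nt of a start lay 66.7% ± 8.33 of peaks, against 36.7% ± 0.367 in other genes (SD, n = 3). At 5 units or more 58.6% ± 29.3 lay within 2000 nt (SD, n = 3), with no such share computed for other genes. From the outer span edge the share was 63.5%, and without single replicates 71.8% to 76.4%. The distance from a start and its alternatives were chosen after seeing the data. The cause of these shifts was not tested, apart from the fewer peaks that a height minimum leaves. Of the bound genes, 8 had no peak left without replicate 1, 4 without replicate 2 and 3 without replicate 3. No paired analysis was possible because the 3 libraries form 1 group.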

Other observations

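Peak edges recurred to the base. Of 18 loci in splicing factor genes found in 2 or 3 libraries, 13 (72.2%) had a start or an end at the same base in at least 2 libraries, and 3 (16.7%) had both. In other protein-coding genes the shares over 1321 such loci were 68.5% and 20.0%, so both sets had edges in common at similar rates. The comparison was chosen after the coordinates of Hnrnpab, Hnrnpu and Sf3a2 were seen, and no test was made.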
